A study of Mus musculus with 4 samples.

Results

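The RNA of L1210-Fbxw11a cells was compared with the RNA of L1210-Fbxw11c cells, which make up 2 of the 4 samples of the study. L1210 is a mouse lymphocytic leukemia line, here DBA subline 212. Per the labels, both lines were made by infecting L1210 cells with a lentivirus that carried a splice variant of Fbxw11, and stable GFP+ cells were then sorted by flow cytometry. L1210-Fbxw11a cells carried variant a, the longest form, and L1210-Fbxw11c cells carried variant c, in which 1 exon is skipped in frame. Both lines were grown in the same RPMI medium with serum, without any other treatment, and whether a line came from 1 clone is not given in the sources used here. RNA of each line was labelled with Cy3 and hybridised to 1 Agilent array, and both arrays lay on the same slide. The comparison asks how the RNA of cells with one variant differed from that of cells with the other. Neither the control line nor the third variant line entered it. Of 24556 gene symbols on the array, 18105 could be compared. With 1 array per line, no difference has a replicate check and no test across samples was possible.

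Fbxw11, also called β-TrCP2, is an F-box protein, the part of an SCF ubiquitin ligase that picks the substrate. With its close relative Btrc it binds proteins that carry a phosphorylated degron, among them β-catenin, the inhibitor IκBα and several cell cycle regulators, and marks them for the proteasome. The ligase therefore acts on proteins, and RNA levels of its substrates and of genes downstream of NF-κB and β-catenin are read here only as RNA.

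Signals are scanner intensities after background subtraction, scaled so that the 75th percentile of gene spots was the same on both arrays, and they are printed on the scale of the L1210-Fbxw11a array. A difference is log2 of the L1210-Fbxw11a signal minus log2 of the L1210-Fbxw11c signal, so a value below 0 means a higher signal in L1210-Fbxw11c. A gene is called here when the signals differed by 2-fold or more. Where a probe was well above background on 1 array only, its fold is a bound, written "at least". The arrays were alike in depth: 66.3% of 59305 gene spots were well above background on the L1210-Fbxw11a array and 64.7% on the L1210-Fbxw11c array, and none was saturated. The 9 E1A spike-in probes that were well above background on both arrays differed by -0.03 ± 0.06 (SD over probes), and a further one at background read 6.41 and 4.40 (0.54). Among probes printed on several spots, the median SD between spots was 0.069 and 0.066 (log2) on the 2 arrays at signals of at least 1000 but 0.59 and 0.61 below 20, so a dim gene is known far less well than a bright one. The spot error given beside single-spot genes is the SD of a difference, taken from such repeated spots at the same signal. It leaves out culture, sorting and RNA extraction.

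The targeted gene had nearly the same signal in both lines. Fbxw11 had a signal of 16525 in L1210-Fbxw11a and 16051 in L1210-Fbxw11c, a difference of 0.04 with a spot error of 0.10. Its other probe gave 11372 and 11455, a difference of -0.01. The probes lie at chr11:32646601-32646660 and chr11:32646490-32646549 (mm9). Whether the viral constructs hold the probed stretch is not given in the sources used here. Btrc, its paralog, stood at 276 and 270. None of the 15 genes of the SCF ligase list was called, where 2.7% of all genes were called higher in L1210-Fbxw11a and 1.62% higher in L1210-Fbxw11c, shares at which so short a list may hold no call. The scaffold cullin Cul1 (985 and 1078), the adaptor Skp1a (32399 and 35337) and the substrate receptors Skp2 (1630 and 1693) and Fbxw7 (1476 and 1495) differed by less than the 1.5-fold within which most genes lay. The widest difference of the list belonged to Ccnf, a cyclin that is itself an F-box protein, at 9838 and 13013 (-0.40).

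Most other genes had nearly the same signal in both lines. Among the 16778 genes measured on both arrays the median difference was -0.01, the quartiles were -0.15 and 0.13, and 92.0% of genes lay within 1.5-fold. In all, 488 genes (2.7% of those compared) passed 2-fold on the side of L1210-Fbxw11a and 294 (1.62%) on the side of L1210-Fbxw11c. By probe, 1194 of 38064 (3.14%) were higher in L1210-Fbxw11a and 678 (1.78%) in L1210-Fbxw11c. Of the 782 called genes 45.8% rest on a bound. The excess of calls in L1210-Fbxw11a depended on the scaling, since these genes made up 62.4% of calls here, 73.8% after normexp background correction, 53.4% after quantile normalization, 53.5% after centring on the median and 52.8% in the authors' own normalized values. The corresponding shares over probes were 63.8%, 74.8%, 54.3%, 55.3% and 54.1%. Of 3188 genes whose brighter signal lay below 50, 7.59% were called. The share was 13.7% of 1886 genes at 50 to 100, 7.94% of 2593 at 100 to 300, 1.76% of 2609 at 300 to 1000 and 0.37% of 7829 above that. Above a signal of 50 the share of calls thus fell as the signal rose. The plot of difference against signal shows this narrowing and the few bright genes that stand outside it.

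**Figure D1:**
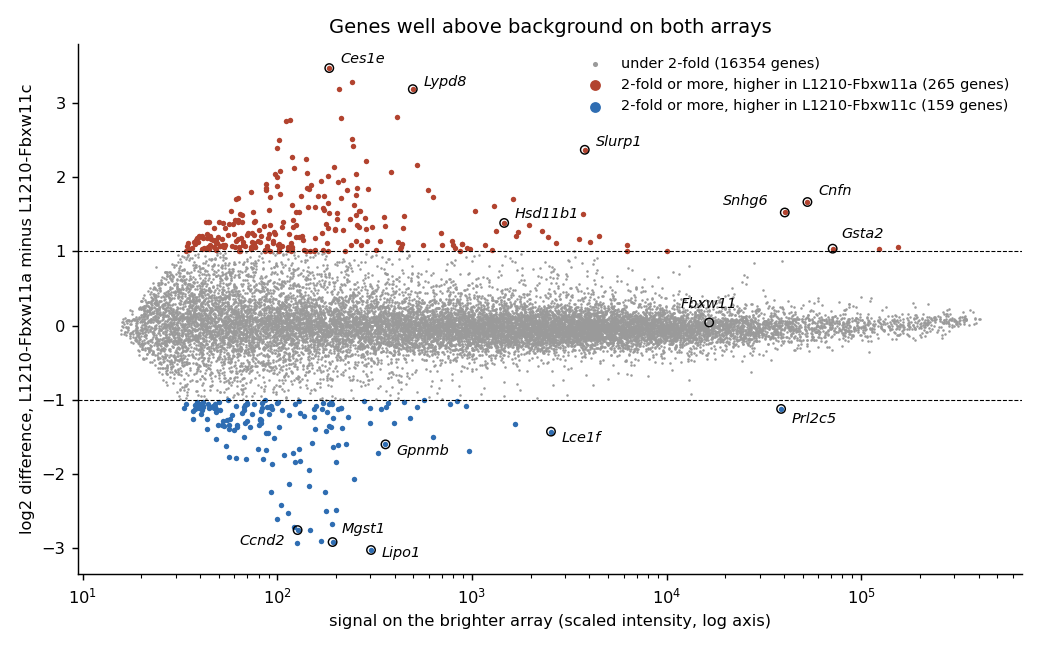
Log2 difference (L1210-Fbxw11a minus L1210-Fbxw11c) against the signal on the brighter array, on a log axis, for the 16778 genes well above background on both arrays, with 1 point per gene. Red points (265 genes) passed 2-fold on the side of L1210-Fbxw11a and blue points (159 genes) on that of L1210-Fbxw11c, dashed lines mark 2-fold, and the called genes thin out toward the right.

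At signals of at least 1000, 26 genes were called higher in L1210-Fbxw11a and 3 in L1210-Fbxw11c. These bright genes were picked out after their values were seen. Slurp1, a secreted Ly6 protein of epithelia, had a signal of 3793 in L1210-Fbxw11a and 734 in L1210-Fbxw11c, which is 5.17-fold (2.37, spot error 0.10). Cnfn, a cornified envelope protein, stood at 52837 and 16656, a difference of 1.67. The noncoding host gene Snhg6, which carries a small nucleolar RNA in its introns, stood at 40419 and 14051, a difference of 1.52.

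Some of the other bright genes are given next, picked after their values were seen and forming no list that was tested. Ptpn22, a phosphatase that dampens antigen receptor signals, stood at 2692 in L1210-Fbxw11a and 1244 in L1210-Fbxw11c (1.11). Lat2, an adaptor of B cells and mast cells, stood at 1680 and 726 (1.21). Cd81, a tetraspanin of the B cell coreceptor, stood at 1728 and 724 (1.26). Myo1g, a myosin of blood cells, had signals of 4512 and 1954 (1.21). In bulk samples, fewer cells of a type or state and less RNA per cell cannot be told apart, here and in the lists that follow.

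Several called genes that encode metabolic enzymes are given next, again picked by their values. Hsd11b1, which regenerates active glucocorticoid, was printed on several spots, so its technical error is known directly. Its 10 spots on the L1210-Fbxw11a array ranged from 1362 to 1619 and its 9 spots on the L1210-Fbxw11c array from 535 to 587, with no overlap, and the mean signals of 1462 and 560 differed 2.61-fold (1.38, SD 0.083). Ugt1a6b, a glucuronosyltransferase, stood at 1041 and 356 (1.55), and its dimmer probe was higher in the same line by at least 1.48 on the log2 scale. In the cytochrome P450 family 4 of 57 compared genes were called, and these 4 were higher in L1210-Fbxw11a (2.7% for all genes). Of these, Cyp3a13 was at 818 and 396 (1.05, or 0.85 after normexp correction) and Cyp2a4 at 140 and 29.4. In the other direction, Mgst1, a membrane-bound glutathione transferase, had a signal of 25.4 in L1210-Fbxw11a and 192 in L1210-Fbxw11c, 7.55-fold (-2.92, spot error 0.51, or -1.47 after normexp correction). A separate Mgst1 probe read 24.2 and 174 (-2.84), so both probes put the gene on the same side. Hsd3b6, a steroid dehydrogenase, stood at 297 and 963 (-1.70).

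The 3 bright genes higher in L1210-Fbxw11c were Prl2c5, Lce1f and C330022B21Rik. Prl2c5 encodes a proliferin, a hormone of the prolactin family with near-identical relatives that may share its signal, and stood at 17764 and 38694 (-1.12). Its other probe read 15564 and 29172 (-0.91), which is on the same side but short of 2-fold. Below a signal of 1000, the protease inhibitor Slpi stood at 436 and 926 (-1.09, or -0.96 after normexp correction) and the glycoprotein Gpnmb, known from macrophages and melanocytes, at 118 and 359 (-1.60). The plot of signals in both lines shows the bright genes of either direction.

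**Figure D2:**
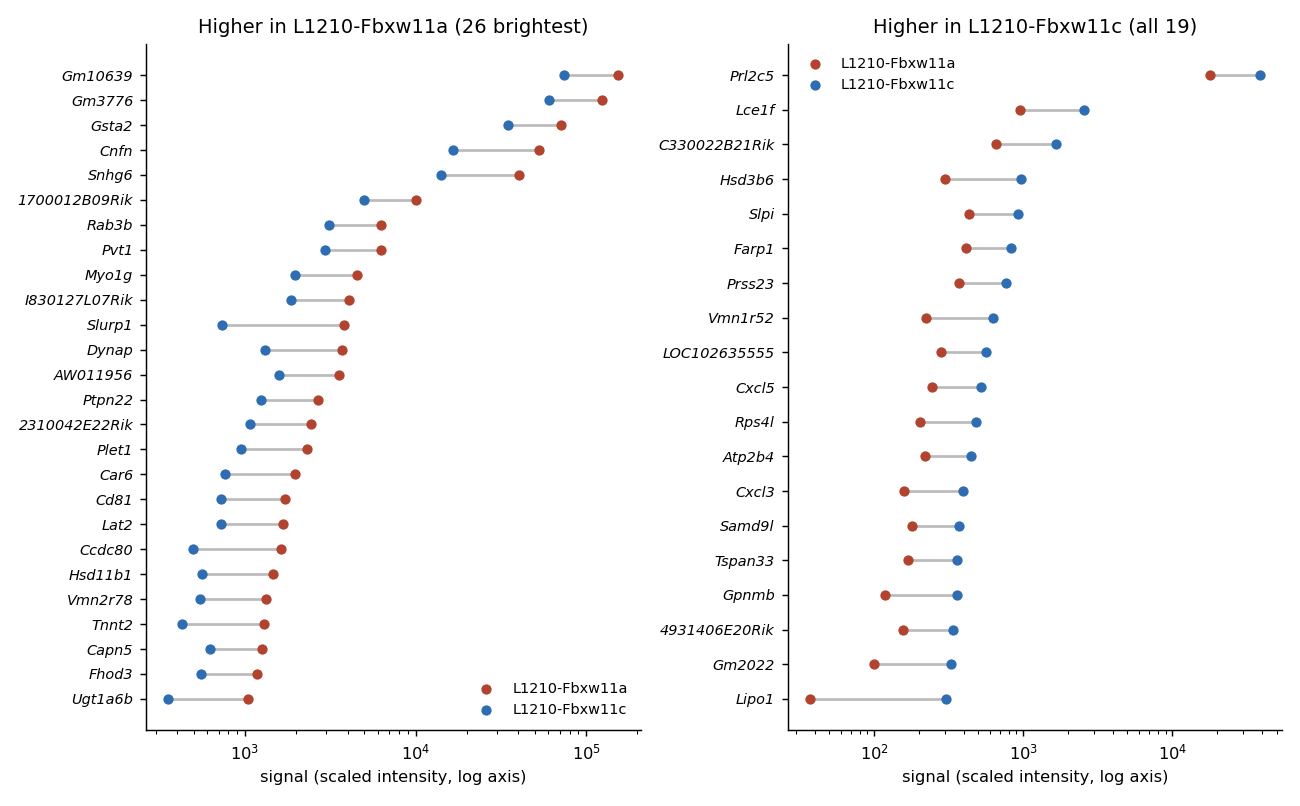
Signal (scaled intensity, log axis) in L1210-Fbxw11a (red) and in L1210-Fbxw11c (blue), 1 array each, for called genes measured on both arrays. The left panel holds the 26 genes of at least 1000 that were higher in L1210-Fbxw11a, and the right panel holds all 19 genes of at least 300 that were higher in L1210-Fbxw11c. Grey lines join the 2 signals of a gene, and the 2 signals lie at least 2-fold apart in every row.

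Among dimmer genes the differences were wider and their errors larger. Lypd8, a secreted protein of the gut lining, stood at 496 and 54.5, or 9.11-fold (3.19, spot error 0.36). Ces1e, a carboxylesterase, had the widest measured difference, 11.1-fold, from signals of 185 and 16.7 (3.47, spot error 0.78). Cep112, a centrosomal protein, stood at 414 and 59.1 (2.81). On the other side Lipo1, a lipase, stood at 37.2 and 303, 8.14-fold higher in L1210-Fbxw11c (-3.02, spot error 0.46). The complement component C7 read 35.8 and 200 (-2.48), but its other probe, well above background in L1210-Fbxw11a alone, lay on the opposite side. F11, a coagulation factor, stood at 29.8 and 190 (-2.68).

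Genes well above background on 1 array give bounds. The hair keratin-associated gene Krtap6-2 was at 324 in L1210-Fbxw11a and not well above background in L1210-Fbxw11c, at least 21.6-fold. In the same direction, Tac4, a tachykinin precursor, was at least 19.1-fold and Ptprz1, a receptor phosphatase, at least 16.7-fold higher. In the direction of L1210-Fbxw11c, Lag3, an inhibitory receptor of activated T cells, was at 135 and at least 9.27-fold higher. Col5a3, a fibrillar collagen chain, was at 130 and at least 8.95-fold higher. Normexp correction drew these dim differences toward 0, to 2.53 for Krtap6-2, -1.33 for Lag3, 2.24 for Lypd8 and 1.69 for Ces1e, while it gave 2.31 for the bright gene Slurp1.

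The alpha-class glutathione S-transferase genes, which detoxify electrophiles, were high and differed together. Gm10639 stood at 154547 in L1210-Fbxw11a and 73901 in L1210-Fbxw11c (1.06), Gm3776 at 123533 and 60604 (1.03), and Gsta2 at 71221 and 34715 (1.04). They lie just past 2-fold, and after centring on the median they fell just short of it, at 0.98, 0.94 and 0.95. Gm3776 also came to 0.99 after normexp correction. All 3 lie at chr9:78090411-78178915 (mm9), a stretch of the array's coordinates in which 15 of 16 probes measured on both arrays were above 0. An unnamed probe among these 16, at chr9:78116894-78116953, has the same sequence as the Gm3776 probe. The 16 are therefore not separate observations. The genes are near copies of each other, and their probes share much of their sequence, so they cannot be counted as separate observations: a transcript of one copy may bind the probe of another. The following 30-base stretches of the 60-base probes, which start at a run that all 3 share, are shown for that reason, with capitals at the columns where they differ.
Gm3776: ggcctctaatGgtttgcaattataaaaAGc
Gm10639: ggcctctaatGgtttgcaattataaaaTAc
Gsta2: ggcctctaatTgtttgcaattataaaaTAc
These probes lie at chr9:78090411-78090470, chr9:78153243-78153302 and chr9:78178856-78178915 (mm9). Lined up without gaps, the Gm10639 and Gsta2 probes share 53 of 60 bases, and the Gm3776 probe shares 41 of 50 with Gm10639 and 46 of 50 with Gsta2.

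The promoters of these copies were also nearly the same letters. The 80-base stretches below, from RefSeq (GRCm38.p6), begin 109 to 127 bases before the start of each gene and end 29 to 47 bases before it, with capitals where any of the 4 differ. They are shown because the differences of Gm3776, Gm10639 and Gsta2 were nearly the same size. Whether the promoters play a part in these differences was not tested. As the probes share much of their sequence, the 3 differences are not separate observations. Gsta1 has no value of its own here, since the scanner output gives that name to the probe listed as Gm3776. The same probe sequence also lies at chr9:78116894-78116953 (mm9). The value printed for Gm3776 therefore cannot be assigned to a single locus.
Gsta1: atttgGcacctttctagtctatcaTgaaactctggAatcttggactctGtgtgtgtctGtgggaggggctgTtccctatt
Gm3776: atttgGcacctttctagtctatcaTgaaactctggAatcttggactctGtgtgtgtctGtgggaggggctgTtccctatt
Gm10639: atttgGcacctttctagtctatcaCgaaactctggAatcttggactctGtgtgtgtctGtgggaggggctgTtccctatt
Gsta2: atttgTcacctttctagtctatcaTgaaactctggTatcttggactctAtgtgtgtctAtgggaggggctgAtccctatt
In GRCm38.p6 they are chr9:78230545-78230624, chr9:78257018-78257097 and chr9:78289819-78289898 on the forward strand and chr9:78347193-78347272 on the reverse strand. Gsta1 matched Gm3776 at 80 of 80 bases, Gm10639 at 79 and Gsta2 at 75. Of the 19 genes of the NRF2 list, which answers to electrophiles, 1 was called, namely Gsta2, beside 2.7% of all genes on that side, and the list median was 0.07. The glutathione synthesis enzyme Gclc stood at 3562 and 4040, the quinone reductase Nqo1 at 1790 and 1173.

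Some other called genes also lay beside genes with a difference of the same sign. These neighbourhoods were chosen after their values were seen, so their counts describe them and test nothing. For comparison, 47.2% of all genes measured on both arrays were above 0 and 52.8% below 0. From Slurp1 to Ly6f (chr15:74557085-75102522, mm9), a stretch of Ly6 family genes that encode small anchored or secreted proteins, 14 of 17 measured genes were above 0. Lypd2, next to Slurp1, stood at 593 and 168 (1.82), and I830127L07Rik at 4055 and 1863 (1.12). Within the same stretch the stem cell antigen Ly6a stood at 83467 and 71623 (0.22), and Ly6e was equal at 102514 and 102548. All 8 mast cell protease and granzyme genes at chr14:56561491-56736635 were above 0, though none reached 2-fold. Their median was 0.77, or 0.54 after normexp correction. Of these, the chymase Cma1 stood at 2470 and 1415 (0.80), Mcpt8 at 1002 and 549 (0.87) and the granzyme Gzme at 1698 and 1014 (0.74). The dim genes Mcpt1 (0.12, spot error 0.88) and Ctsg (0.11, spot error 0.48) lay within their spot error.

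On chromosome 13, 5 of 5 measured genes from Slc25a48 to Gm10781 (chr13:56573306-56703915) were above 0. Il9, a T cell cytokine, lies among them, with a signal of 51.0 in L1210-Fbxw11a, at least 3.39-fold above L1210-Fbxw11c. Its neighbours AW011956 (3548 and 1579, 1.17) and Lect2 (790 and 442, 0.84) were on the same side. In the S100 gene stretch (chr3:90315191-90496632), whose products bind calcium, 9 of 12 genes were above 0. S100a4 stood at 39321 and 21563 (0.87), S100a8 at 941 and 454 (1.05, or 0.97 after normexp correction) and S100a7a at 354 and 128 (1.46), but S100a6 at 292723 and 272670 (0.10) and S100a9, the partner of S100a8, at 83.0 and 95.7 (-0.20).

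The late cornified envelope genes (chr3:92450489-92653930), which build the outer skin layer, went the other way. Of 11 genes measured on both arrays 10 were below 0, with a median of -0.86 that shrank to -0.43 after normexp correction. Lce1f stood at 945 in L1210-Fbxw11a and 2543 in L1210-Fbxw11c (-1.43), and Lce1g at 1246 and 1912 (-0.62). Lce1j was close to equal at 1297 and 1364. From 2410141K09Rik to C330022B21Rik (chr13:66223293-66627571), 11 of 13 measured probes were below 0, and C330022B21Rik itself stood at 660 and 1657 (-1.33). The plot of neighbouring genes gives each probe with its spot error.

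**Figure D3:**
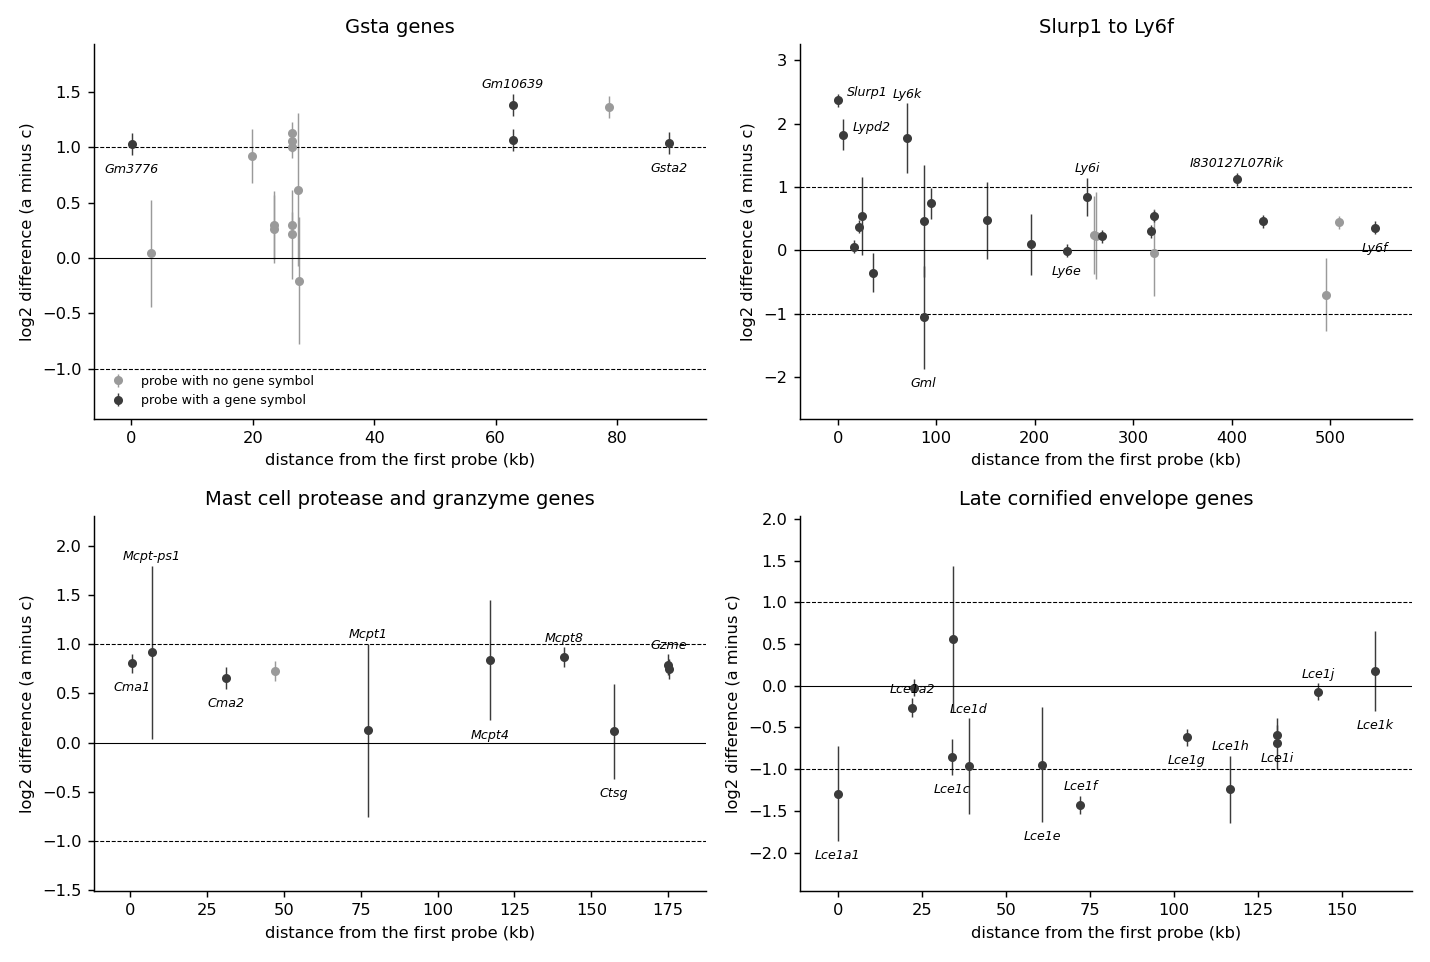
Log2 difference (a minus c, that is L1210-Fbxw11a minus L1210-Fbxw11c) of each probe well above background on both arrays against its distance in kb from the first probe of the stretch, for 4 neighbourhoods chosen after their values were seen. Bars are the spot error (SD) at the probe's signal, dashed lines mark 2-fold, and grey points are probes with no gene symbol. The Gsta and protease panels lie mostly above 0, the late cornified envelope panel mostly below.

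Pvt1, a long noncoding RNA next to Myc, stood at 6248 and 2941 (1.09), with a further probe at 1707 and 1044 (0.71). A probe with no gene symbol inside the same locus (chr15:62074025-62074084, mm9) read 2346 and 1165 (1.01). Other unnamed probes between Myc and Pvt1 ran from -0.58 to 0.35. The brightest of them, at 24506 and 22482 (0.12) and at 685 and 642 (0.09), were near 0. Of the 18 probes measured from Myc to Pvt1 10 were above 0 and 8 below. Myc, a target of β-catenin signalling and of Fbxw7, stood at 10489 and 11656 (-0.15), short of 2-fold and on the opposite side.

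Of 26 leukocyte adhesion and homing genes compared, 5 were called higher in L1210-Fbxw11a and 0 in L1210-Fbxw11c, against 2.7% and 1.62% of all genes. The list median was 0.17, or 0.13 after normexp correction, and 18 of 24 measured members were above 0 and 6 below. Selplg, the ligand of P-selectin, stood at 355 and 140 (1.35), although its other probe read 184 and 179 (0.05). Itgal, the α chain of LFA-1, stood at 428 and 209 (1.04), with a further probe at 157 and 86.1 (0.87). Itga2b, the platelet integrin chain, stood at 105 and 41.7 (1.33). Itga4, the α chain of VLA-4, was at 81.0 and not well above background in L1210-Fbxw11c, at least 5.39-fold. Of the partner chains, Itgb2 of LFA-1 stood at 4784 and 4644 (0.04), Itgb7 at 64901 and 58744 (0.14), and Itgb1 at 6316 and 4970 (0.35). After normexp correction Itgal (0.92) and Itga2b (0.71) fell short of 2-fold.

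Chemokines and their receptors were called on both sides. Ccr10, a receptor that guides lymphocytes to skin, stood at 211 and 30.4 (2.80, spot error 0.55), 6.95-fold higher in L1210-Fbxw11a, and the difference was 1.58 after normexp correction. The neighbouring neutrophil chemokines of chromosome 5 (chr5:91190490-91334593) were all below 0: Cxcl5 at 245 and 524 (-1.09), Ppbp at 121 and 299 (-1.31), Cxcl3 at 160 and 397 (-1.31), Cxcl1 at 802 and 1188 (-0.57) and Cxcl2 at 42.0 and 50.9 (-0.28). A further probe in this stretch lay at 0.93, on the opposite side, and after normexp correction Cxcl5 (-0.95) and Ppbp (-0.97) fell short of 2-fold. The monocyte chemokines Ccl7 (17.6 and 54.4, -1.62) and Ccl2 (586 and 1114, -0.93) were also higher in L1210-Fbxw11c. Over the list, 1 of 31 compared genes was called in the direction of L1210-Fbxw11a and 4 in the other (2.7% and 1.62% for all genes), 12 of 28 measured members were above 0, and the median was -0.19, or -0.02 after normexp correction. Other receptors were nearer to equal, such as Ccr7, the receptor of lymph node homing, at 9114 and 7512 (0.28). Of 26 interleukins and colony factors Il9 was called on one side and Il22, a cytokine that acts on epithelia, on the other (31.8 and 86.9, -1.45), beside the same shares of all genes, and after normexp correction these came to 0.78 and -0.67, and Ccl7 to -0.54.

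Wnt genes were called on both sides. Of 28 compared, 5 were called higher in L1210-Fbxw11a and 1 higher in L1210-Fbxw11c (2.7% and 1.62% for all genes), while the list median was -0.18, or -0.09 after normexp correction, and 19 of 26 measured members were below 0. Wnt11 stood at 235 and 86.9 (1.43), Wnt16 at 177 and 68.4 (1.37) and Wnt9b at 44.7 and 21.8 (1.04). The ligand Wnt2b (132, at least 8.79-fold) and the secreted inhibitor Dkk1 (142, at least 9.47-fold) were well above background in L1210-Fbxw11a alone. The receptor Fzd3 stood at 94.5 and 205 (-1.12). Wnt10a, another ligand, stood at 17532 and 27088 (-0.63), and the receptor Fzd2 at 3336 and 4262 (-0.35). After normexp correction Wnt9b (0.32), Wnt16 (0.98) and Fzd3 (-0.78) fell short of 2-fold, while Dkk1 came to 1.63 and Wnt2b to 1.36.

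Genes that β-catenin and TCF or NF-κB are known to drive had list medians near 0, and the calls among them are to be read against 2.7% of all genes on the side of L1210-Fbxw11a and 1.62% on that of L1210-Fbxw11c. Of 20 β-catenin/TCF targets compared, Dkk1 was called on one side and Rnf43, a feedback ligase that clears Frizzled receptors, on the other (34.1 and 81.5, -1.26), and the median was -0.03. The feedback gene Axin2 was not well above background on either array. Of 31 NF-κB targets compared 1 was called, the survival gene Bcl2a1d, at 88.0 and 42.7 (1.04), and the median was -0.03. Nfkbia, which encodes the β-TrCP substrate IκBα, stood at 20845 and 24742 (-0.25), and Ctnnb1, which encodes β-catenin, at 9437 and 10109 (-0.10). Among 29 genes whose proteins are known substrates of β-TrCP, the clock gene Per2 was called, at 99.2 and 26.8 (1.89), and 18 of 29 were below 0 against 52.8% of all genes. After normexp correction Rnf43 (-0.56), Bcl2a1d (0.59) and Per2 (0.96) were no longer at 2-fold.

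Lists that the study itself labels were chosen on these samples and are no independent evidence of a direction. The shares of all genes called, 2.7% and 1.62%, apply to them too. Of the 23 genes compared from its NF-κB list, Dio2 (99.9 and 19.0, 2.39) and Cd209e (at least 2.51-fold) were called higher in L1210-Fbxw11a, and Ccnd2 and F8 (by at least 2.01-fold) were higher in L1210-Fbxw11c. Of 22 from its β-catenin/TCF list, Krt26 was called on the former side (52.1 and 23.1, 1.17), and Ccnd2 and Ephb1 (at least 2.12-fold) on the latter. Of the 17 measured members of that list 13 were above 0 and 4 below, with a median of 0.21, or 0.25 after normexp correction. Of 18 from its proliferation list, Esm1 was called, at 56.0 and 24.0 (1.22). Of these, Dio2 (1.02) and Ccnd2 stayed at 2-fold after normexp correction. Keratin genes of these lists that fell short of 2-fold pointed in both directions, with Krt5 at 305 and 159 (0.94) and Krt17 at 34.6 and 65.6 (-0.92).

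Of the G1 cyclins, kinases and their inhibitors, 1 of 18 was called, on the side of L1210-Fbxw11c (1.62% for all genes). Ccnd2, a D-type cyclin, stood at 18.8 in L1210-Fbxw11a and 127 in L1210-Fbxw11c, 6.75-fold (-2.76, spot error 0.67), from a single probe with 1 spot on each array. After normexp correction the difference was -1.19. The other D-type cyclins were nearly equal, with Ccnd1 at 15169 and 13950 (0.12) and Ccnd3 at 9513 and 8344 (0.19). The kinase Cdk4 stood at 37198 and 41183 (-0.15). The inhibitor Cdkn1a, p21, stood at 817 and 621 (0.39), and Cdkn1b, p27, at 2519 and 2843 (-0.17).

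Mitotic genes were slightly lower in L1210-Fbxw11a. All 28 genes of the list were below 0, against 52.8% of all genes, with a median of -0.24 and a range of -0.56 to -0.07, and 0 of them reached 2-fold. The widest differences were those of Cenpf, a kinetochore protein, at 124 and 183 (-0.56), Kif23, a kinesin of cytokinesis, at 4720 and 6790 (-0.52), and Mki67, the proliferation marker, at 17530 and 24419 (-0.48). Next came Cenpe, a kinetochore motor, at 9215 and 12817 (-0.48), and Hmmr, a spindle protein, at 3412 and 4714 (-0.47). The mitotic kinases were closer, with Plk1 at 35267 and 39292 (-0.16), Aurka at 30161 and 33194 (-0.14) and Cdk1 at 12788 and 13984 (-0.13). All 28 also lay below 0 under each of the 6 other settings, where the median ran from -0.33 to -0.22. Genes of DNA replication had a median of -0.02 over 27 genes, with the helicase subunit Mcm6 at 86656 and 73038 (0.25) and the polymerase subunit Pola1 at 3229 and 3882 (-0.27).

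Mitotic genes are known to share short promoter elements, the CCAAT box and the CHR element, so the promoters of the 5 members with the widest differences are shown with these letters in capitals. They come from RefSeq (GRCm38.p6) and run from 90 bases before to 20 bases after the start, except for Mki67, whose matches lie farther upstream and whose stretch runs from 150 to 40 bases before it. The letters searched on both strands were CCAAT, which reads ATTGG on the other strand, and TTTGAA or TTTAAA, and the 2 searches share no base.
Cenpf: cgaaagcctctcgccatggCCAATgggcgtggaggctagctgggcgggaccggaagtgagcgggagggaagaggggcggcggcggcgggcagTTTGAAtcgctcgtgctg
Kif23: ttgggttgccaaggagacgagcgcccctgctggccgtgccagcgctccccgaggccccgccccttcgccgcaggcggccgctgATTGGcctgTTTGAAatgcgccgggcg
Mki67: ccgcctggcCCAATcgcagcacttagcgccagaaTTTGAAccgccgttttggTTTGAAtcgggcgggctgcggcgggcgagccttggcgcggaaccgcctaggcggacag
Cenpe: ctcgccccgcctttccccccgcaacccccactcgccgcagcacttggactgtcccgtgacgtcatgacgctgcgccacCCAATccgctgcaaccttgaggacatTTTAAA
Hmmr: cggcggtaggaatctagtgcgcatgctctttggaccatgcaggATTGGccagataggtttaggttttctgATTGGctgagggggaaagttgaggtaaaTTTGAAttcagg
Their positions are chr1:189688067-189688176 for Cenpf, chr9:61946780-61946889 for Kif23, chr7:135716420-135716529 for Mki67 and chr11:40733418-40733527 for Hmmr on the reverse strand and chr3:135212473-135212582 for Cenpe on the forward strand. Of the 28 mitotic genes 22 had an entry in the promoter table. Over the full 300 bases of each entry, 20 of these 22 genes (90.9%) held CCAAT, 18 (81.8%) held TTTGAA or TTTAAA, and 17 (77.3%) held both. Among all 27025 genes of the table the shares were 41.1%, 30.6% and 12.2%, and among 22 matched genes of DNA replication 68.2%, 31.8% and 22.7%. A match gives letters, not a bound site.

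**Figure D4:**
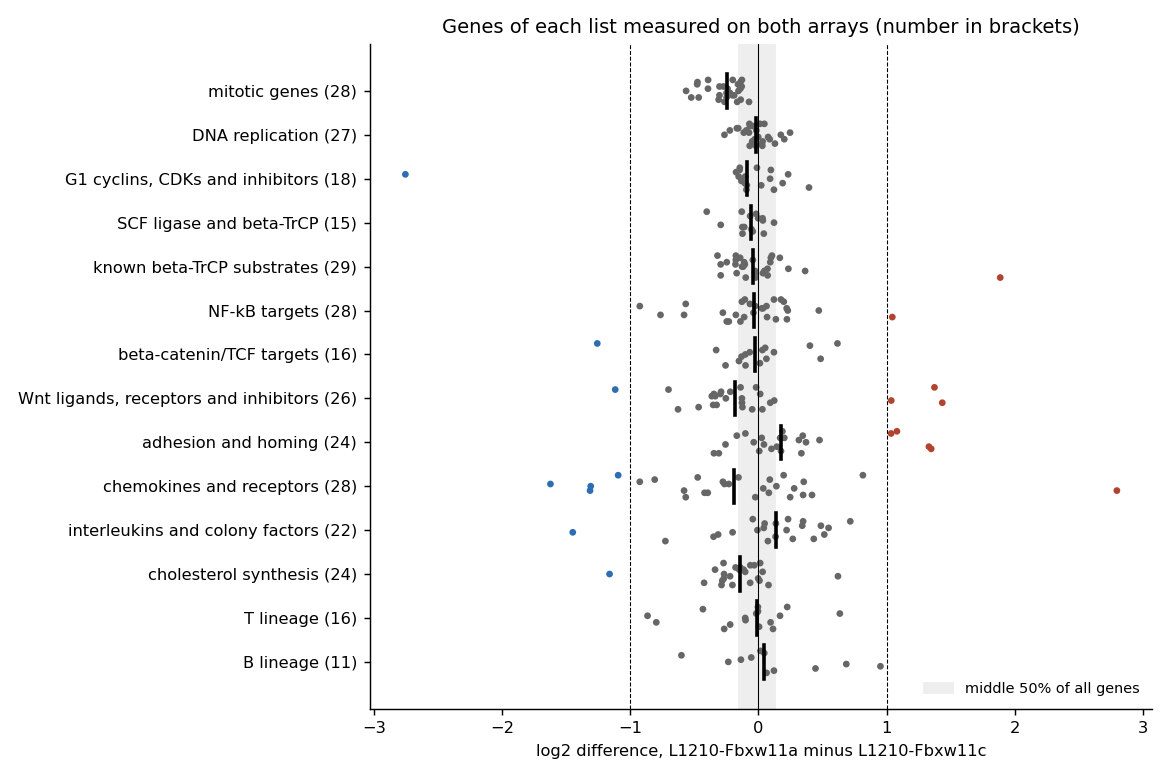
Log2 difference (L1210-Fbxw11a minus L1210-Fbxw11c) of each gene measured on both arrays, by gene list, with the number of genes in brackets, 1 point per gene. Black bars are list medians, the grey band is the middle 50% of all genes, dashed lines mark 2-fold, and red and blue points are genes called higher in L1210-Fbxw11a and in L1210-Fbxw11c. The points of the mitotic list all lie left of 0, while those of DNA replication lie on both sides.

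As the plot of gene lists shows, the other lists held genes on both sides of 0. Genes of cholesterol synthesis were below 0 in 19 of 24 cases, against 52.8% of all genes, with a median of -0.15, among them the isomerase Idi1 (9145 and 11119, -0.28) and the synthase Hmgcs1 (21550 and 24809, -0.20). Glycolysis genes were above 0 in 16 of 21 cases with a median of 0.10, such as the glucose transporter Slc2a1 (9972 and 7715, 0.37). Heat shock and chaperone genes were below 0 in 19 of 23 cases, but with a median of only -0.08. Of 16 antigen presentation genes compared H2-Eb1, an MHC class II chain, was called higher in L1210-Fbxw11c (1.62% for all genes), at 23.6 and 67.1 (-1.51), the immunoproteasome subunit Psmb9 stood at 912 and 1303 (-0.52), and the class I gene H2-K1 at 24412 and 25827 (-0.08). H2-Eb1 came to -0.56 after normexp correction.

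Of the transcription factors of blood formation 3 of 32 were called, all 3 higher in L1210-Fbxw11a (2.7% for all genes) and all 3 dim. Erg, a stem cell factor, was at 128 and at least 8.51-fold higher. Mecom, also a stem cell factor, was at 45.8 and at least 3.05-fold higher. Gfi1, a repressor of the myeloid and lymphoid lines, stood at 52.8 and 24.8 (1.09, spot error 0.61). Gfi1 came to 0.43, Mecom to 0.60 and Erg to 1.36 after normexp correction. Other factors of the list were near 0, with Runx1 at 2306 and 1996 (0.21) and Foxo1 at 6024 and 6023 (0.00). In the Bcl2 and death receptor list 1 of 25 genes compared was called on each side (2.7% and 1.62% for all genes), and Bcl2a1d was joined by Bik, a killer protein of the same family, at least 2.15-fold lower in L1210-Fbxw11a (-0.21 after normexp correction), while Bcl2l1 (15552 and 13561, 0.20) and Fas (188 and 228, -0.28) fell short of 2-fold.

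In gene families, zinc finger proteins were mostly below 0, at 218 of 306 measured with a median of -0.10, or -0.07 after normexp correction. Zfp85 was called higher in L1210-Fbxw11c (22.5 and 168, -2.90, or -1.49 after normexp correction), but its other probe read 54.5 and 53.6 (0.02). Olfactory receptors, which sense odours and are not known for a role in these cells, were called 36 times higher in L1210-Fbxw11a and 23 times higher in L1210-Fbxw11c among 409 compared (2.7% and 1.62% for all genes). Dim genes in general were called more often on either side, at 7.59% below a signal of 50 and 13.7% at 50 to 100. The receptors were not set against genes of equal signal. Serpins, inhibitors of proteases, were called 4 times among 40 compared, each time on the side of L1210-Fbxw11a (2.7% for all genes), with Serpina3f at 631 and 190 (1.73). Of 37 keratins compared 3 were called on that side, with Krt76 at 975 and 475 (1.04, or 0.95 after normexp correction), and 1 on the other, against the same shares of all genes. Of the 30 keratins measured on both arrays 24 were above 0 and 6 below, with a median of 0.16, or 0.14 after normexp correction.

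Several probes of a gene gave a check within the arrays. Of the 782 called genes 87 had other probes with a value, 99 in all, of which 60 had the same sign, 16 were called the same way and 4 the other way. Where both probes were measured and reached a signal of 100, the sign was shared in 14 of 14 cases and 5 were called the same way. Ccdc80, a matrix protein, stood at 1629 and 498 (1.71), with a dimmer probe higher by at least 1.72 on the log2 scale. Capn5, a calpain protease, stood at 1259 and 624 (1.01) and at 579 and 217 (1.41). Disagreements were seen for Calcoco2, an autophagy receptor, at 384 and 91.6 (2.07) against 95.4 and 93.1 (0.04), and for Pcdh11x, a protocadherin, at 444 and 178 (1.32), whose 2 other probes pointed to L1210-Fbxw11c. Of the 287 compared probes printed on at least 5 spots 2 were called, or 0.697%, Hsd11b1 and Edn1. Edn1, the endothelin precursor, had 10 spots per array, which ranged from 43.0 to 58.1 in L1210-Fbxw11a and from 137 to 162 in L1210-Fbxw11c, 2.99-fold (-1.58, SD 0.16).

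Differences were spread over the genome. The chromosome medians ran from -0.07 on the X chromosome and -0.06 on chromosome 13 to 0.05 on chromosome 15, a range of 0.12. Probes with no gene symbol added 575 calls in the direction of L1210-Fbxw11a and 313 in the other, of 13690 compared (3.14% and 1.78% for all probes). The most extreme of these, picked out after its value was seen, lies at chr4:56618067-56618126 (mm9) and read 5.88 in L1210-Fbxw11a, not well above background, and 40482 in L1210-Fbxw11c. It has 1 spot per array, and 3 other measured probes of the same locus read 76.2 and 70.8, 38.1 and 16.7, and 76.2 and 52.1, so they did not share the difference. The probe at 38.1 and 16.7 was itself called on the opposite side (1.19). A further probe of the locus was not well above background on either array (9.31 and 4.84).

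The labelled cell type was set against its markers. Of 7 B lineage markers 4 were well above background on both arrays, at low signals, with Cd79a at 91.5 and 95.1, while Cd79b, Ebf1 and Igll1 were not well above background on either. Of 7 T lineage markers 5 were, with Cd3e at 1617 and 1495 and Cd4 at 3070 and 3106, while Cd3d and Cd3g were not. Defining genes of both lineages were thus partly at background, and 0 of 12 compared genes of the full B lineage list and 0 of 18 of the T lineage list were called, lists too short for these counts to differ from 2.7% and 1.62% of all genes. The summed signal of 6 macrophage and monocyte markers was 7756 and 6409, that of 4 granulocyte markers 2708 and 2078, that of 6 fibroblast markers 353 and 296, and that of 4 red cell markers 291 and 246. The sum of the 6 fibroblast markers takes its direction from Pdgfra (209 and 145), while Col1a1 (-0.34) and Col3a1 (-0.28) were below 0 and Dcn (0.23) above. Of the markers in these sums, Emr1, the F4/80 antigen of macrophages, was called at 91.9 and 36.0 (1.35, or 0.73 after normexp correction), and S100a8 as above, while Lyz2 was not well above background on either array. The B and T lineage markers summed to 217 and 212 and to 4912 and 4822. Over the full lists the sums in L1210-Fbxw11a and L1210-Fbxw11c were 12834 and 11569 for 15 macrophage and monocyte genes, 3981 and 2889 for 14 granulocyte and mast cell genes, and 7318 and 7547 for 22 T lineage genes. These sums also lean on a few bright genes. They are Cd68 (5696.5 and 4616.6) for macrophages, S100a8 and Mcpt8 (1002 and 549) for granulocytes, and Gata3 (1002 and 1206) for the T lineage. In the same order, 7 of 9, 5 of 8 and 6 of 16 measured members were above 0. The other 3 full sums likewise rest on 1 or 2 bright genes. That of 13 fibroblast genes, 208999 and 195194, is mostly Vim (173680 and 156044) and Fn1 (32395 and 34852), while Col1a1, Col1a2 and Col3a1 were below 0 and the list median was -0.01, with 4 of 8 measured members on each side. That of 10 red cell genes, 2318 and 2740, takes its direction from Epor (1914 and 2404), while 4 of 5 measured members were above 0 (median 0.13). That of 24 B lineage genes, 31556 and 34286, takes its direction from Cd24a (7006 and 10627), while 7 of 11 were above 0 (median 0.05). The part of such cells in the differences was not tested.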

How the data were processed

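RNA of L1210-Fbxw11a and L1210-Fbxw11c cells was hybridised to Agilent mouse arrays in 1 colour, with 1 array per line. For each array the authors deposited scanner output from Feature Extraction (10.7.1.1 per the file headers, 9.1 per the submitters' processing notes), which holds a background-subtracted signal intensity per spot with flags. They also deposited log2 values normalized across arrays by a method not given in the sources used here, with gene symbols and mm9 coordinates.

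The processed signal was divided by the 75th percentile of gene spots (627.3 and 672.5), control spots and spots flagged as outliers (145 and 139) were not used, and repeated spots of 1 probe were averaged. Comparison was made where at least 0.5 of a probe's spots were well above background on at least 1 array. On the other array a bound took the higher of the probe's signal and the lowest signal of probes well above background (14.5 and 15.0). A gene, by its deposited symbol, was represented by its probe of highest mean signal. Counts at 2-fold and medians were taken with no test, since there was 1 array per line, and the number of arrays limits the precision. Alternatives were quantile normalization, normexp correction with an offset of 50 (limma 3.58.1), median centring, the deposited normalized values, outlier spots kept, other filters on dim probes, other folds and the mean of all probes of a gene. The software was Python 3.11.15 with pandas 2.3.3 and numpy 2.4.6, and R 4.3.3.

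Genes named by rule were the 12 with the largest measured difference in each direction at a signal of at least 100, the 8 largest bounds in each direction, and called members of the gene lists. Bright genes, gene neighbourhoods and contrasting members were picked after their values were seen, and the comparison and the lists were chosen with earlier results of these data known. Some genes of the lists are counted but not reported here by name. Emr1 is the array's older symbol of Adgre1. Promoters came from RefSeq (GRCm38.p6) and were matched by symbol. Il6, well above background on 1 array, would have a bound under 1 and has no value here.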

Additional observations from a re-analysis of the deposited data

How the results depend on the processing

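The 1872 called probes and 782 called genes became 452 and 214 after normexp correction, 5330 and 2088 with no filter on dim probes, 935 and 424 with a filter on both arrays, 615 and 281 where the brighter signal had to reach 100, 4785 and 1978 at 1.5-fold, and 781 and 315 at 3-fold. Under quantile normalization, median centring, the deposited normalized values and outlier spots kept, between 1841 and 1884 probes and 756 and 788 genes were called. Of the 214 genes called after normexp correction 210 were among the 782, and so were 694 of 756 after quantile normalization. Called members of the gene lists numbered 37 here and 11 after normexp correction. Of the 75 called genes named by rule, 75 kept their sign and 47 stayed at 2-fold under every scaling, and of the 73 bright called genes 73 kept their sign and 46 stayed at 2-fold. Pcdh11x turned from 1.32 to -0.43 where all probes of a gene were averaged, which brought in its 2 probes of opposite sign. Centring on the median shifted the median of all genes to -0.10. Normexp correction adds an offset of 50, which by its construction draws dim differences toward 0. Signal over background limits the comparison: the median SD between spots was 0.24 and 0.20 at signals of 50 to 100 on the 2 arrays, against 0.078 and 0.065 at 300 to 1000. The medians of the gene neighbourhoods under other scalings were an alternative chosen after seeing the data.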
